A study of Mus musculus with 18 samples.

Results

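The genes described here are 10 that hematopoietic stem cells (HSCs) have in common with blood vessel endothelium, namely Tek, Tie1, Cdh5, Pecam1, Esam, Eng, Emcn, Robo4, Ramp2 and Jam2. They were picked by symbol, with earlier results of these data known, and all 10 were found among the 24421 gene symbols of the count table. The RNA came from 3 HSC fractions sorted from marrow of Hoxb5-tri-mCherry mice, a line whose mCherry reports Hoxb5. LT-HSCs (long-term) were the Hoxb5-positive HSCs, ST-HSCs (short-term) the Hoxb5-negative ones, and bulk-HSCs the whole pool gated by surface antigens, so that bulk-HSCs hold both of the others. Mice called young had an age of 2 to 3 months and those called aged 23 to 25 months, all groups carried the reporter, and each of the 6 groups had 3 libraries, 18 in all. The labels do not say whether a library came from 1 mouse or a pool, so p-values measure the spread between libraries only.

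HSCs and endothelium arise from a common embryonic source, since the first HSCs bud from hemogenic endothelium. Several surface proteins of vessels therefore stay on HSCs in adult marrow. Tek (Tie2) binds angiopoietins and Tie1 is its partner receptor, Eng (endoglin) is a co-receptor for BMP9, BMP10 and TGF-beta ligands, and Cdh5, Pecam1, Esam and Jam2 are cell adhesion molecules of endothelial junctions. Robo4 is an endothelial roundabout receptor that takes part in the lodging of HSCs in the marrow, Ramp2 turns the receptor Calcrl into an adrenomedullin receptor, and Emcn (endomucin) is a sialomucin on venous and capillary endothelium and on HSCs.

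Between 16495048 and 22973844 reads were counted per library. A count of 3, taken as the detection floor, corresponded to 0.132 to 0.176 CPM (counts relative to the library total, scaled by TMM factors), and it covers counting error only. Replicate 3 of young LT-HSCs and replicate 3 of young ST-HSCs stood apart. Among 9653 genes whose median count was 200 or more, 163 and 160 were listed at 0 in these libraries, against 1 to 67 in the other young libraries and 2 to 6 in the aged ones. A listed 0 therefore did not by itself show that a gene was silent. Hoxb5, which defined the sort, spanned 8.2 to 40.3 CPM for LT-HSCs, 0 to 4.56 for ST-HSCs and 1.72 to 14.1 for bulk-HSCs. Kit, on which the cells were enriched, had group means of 1220 to 1500 CPM.

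Of the 10 genes, 9 passed the filter of a mean of at least 1 CPM and were tested, among 12808 genes in all, and 8 had counts in all 18 libraries. Cdh5 (VE-cadherin, the defining adhesion molecule of endothelial junctions, ENSMUSG00000031871.9) had 0 counts in all 18 libraries and was not tested. It was thus below the floor of 3 counts in each library, the aged ones included. Ramp2 was the other gene with zeros, at 0 in 5 libraries.

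Per kilobase of annotated exon, the 10 genes spanned a wide range of levels. Eng was highest at 82.6 ± 8.86 CPM per kb (SD, n = 18 libraries), followed by Tie1 at 55.4 ± 5.81, Esam at 39.1 ± 6.82, Tek at 17.2 ± 3.79, Robo4 at 14 ± 3.5 and Pecam1 at 10.2 ± 2.35. Jam2 was at 6.59 ± 3.37 CPM per kb, Emcn at 4.38 ± 1.37 and Ramp2 at 2.24 ± 2.74. By this length the first 3 places were held in every library, with Eng over Tie1, Tie1 over Esam and Esam over Tek in 18 of 18. Below them neighbours could not be told apart beyond their spread, since Tek exceeded Robo4 in 13 libraries, Robo4 exceeded Pecam1 in 14, Pecam1 exceeded Jam2 in 15, and Jam2 exceeded Emcn in 11. Pecam1 moved to 18.5 CPM per kb, ahead of Tek at 17.4 and Robo4 at 15, when the longest transcript was used as the length in place of the union of exons. By that length Eng, Tie1 and Esam kept the highest means (97.7, 64.4 and 60.2), but Tie1 and Esam changed places between libraries. In young LT-HSCs, for example, Esam was at 86.5 and Tie1 at 70.7 in replicate 1, and at 61.7 and 69.4 in replicate 2.

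**Figure D1:**
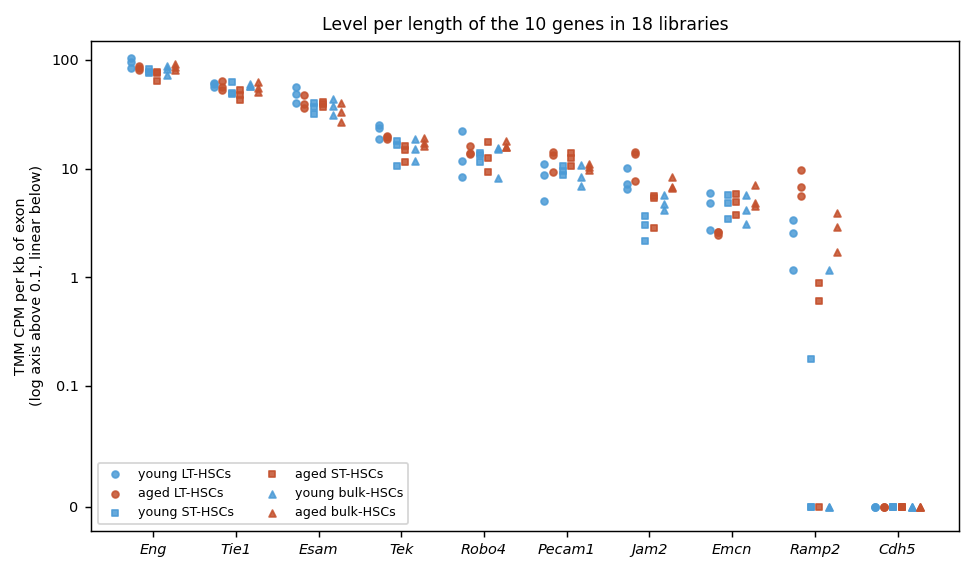
Level of each of the 10 genes in CPM per kb of exon (vertical axis, logarithmic above 0.1 and linear below), with 1 point for each of the 18 libraries, colored by age and shaped by fraction. Eng, Tie1 and Esam sat between 26.7 and 103 in every library, Ramp2 spread from 0 to 9.61, and Cdh5 was at 0 throughout.

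The genes at the head of this order were also the steadiest. The highest library exceeded the lowest by 1.49-fold for Tie1 and 1.63-fold for Eng, and the SD of log2(CPM + 1) over the 18 libraries was smaller than theirs in 3.4% and 3.44% of all tested genes. Jam2 spread 6.67-fold, with 69.2% of tested genes below its SD, and Ramp2 had a larger SD than 99.4% of tested genes. These shares were taken over tested genes of all levels and were not matched for level. The remaining members spread between 2.11-fold (Esam) and 2.88-fold (Emcn). Because Tie1 and Eng were the highest and steadiest of the group, their promoters are shown, from 250 bases before to 50 after the RefSeq start (GRCm38.p6). Capitals mark ACTTCC, which is the ETS-type core GGAAGT read on the other strand.
Tie1, chr4:118489800-118490099, minus strand: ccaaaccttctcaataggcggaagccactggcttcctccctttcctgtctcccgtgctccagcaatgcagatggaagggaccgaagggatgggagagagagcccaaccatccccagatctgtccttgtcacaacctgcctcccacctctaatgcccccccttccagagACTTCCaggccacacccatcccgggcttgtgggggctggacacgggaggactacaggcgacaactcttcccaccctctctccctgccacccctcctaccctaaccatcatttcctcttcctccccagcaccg
Eng, chr2:32646345-32646644, plus strand: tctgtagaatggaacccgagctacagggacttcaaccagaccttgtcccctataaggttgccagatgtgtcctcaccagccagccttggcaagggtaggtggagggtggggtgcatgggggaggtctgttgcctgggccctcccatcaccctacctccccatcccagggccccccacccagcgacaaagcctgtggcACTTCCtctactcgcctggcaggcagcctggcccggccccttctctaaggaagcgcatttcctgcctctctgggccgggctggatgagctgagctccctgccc
The match began 82 bases before the start in Tie1 and 53 bases before it in Eng. Of the 5 members with a RefSeq promoter in the table used (Tek, Tie1, Eng, Emcn and Robo4), these were the ones with GGAAGT on either strand, and 23.8% of 32851 promoters of the same length held it. The motif of GATA factors, searched as AGATAA, occurred in 1 of the 5, at base 37 after the start of Tek, and in 11.2% of all promoters. CANNTG, the E-box, was in all 5 and in 72.3% of all promoters. These matches describe letters and do not show binding.

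Across the group, 1 member passed the test between LT-HSCs and ST-HSCs of young mice (edgeR quasi-likelihood test, Benjamini-Hochberg adjusted p under 0.05 over all 12808 genes), namely Jam2, higher in LT-HSCs. In that comparison 0.429% of all tested genes were called. Non-overlapping groups with higher values in young LT-HSCs were seen for 5 of the 9 tested members (Tek, Esam, Eng, Ramp2 and Jam2), against 6.04% of all tested genes. The median log2 difference of the 9 was 0.26, beside 0.00 for all tested genes. In aged mice no member was called between LT-HSCs and ST-HSCs, where 1 gene in all was called (0.00781%), while 5 of the 9 had an unadjusted p under 0.05, against 3.41% of all tested genes. Groups did not overlap for 4 members that were higher in aged LT-HSCs (Tek, Eng, Ramp2 and Jam2), against 8.67% of tested genes, and for Emcn, which was lower, against 6.34%. The members' median was 0.23, beside 0.01 for all tested genes.

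No member was called with age within a single fraction. The called share of all tested genes was 0.445% for LT-HSCs, 0.851% for ST-HSCs and 1.98% for bulk-HSCs. An unadjusted p under 0.05 was reached by 2 of the 9 members in LT-HSCs (Pecam1 and Emcn), by 1 in ST-HSCs (Jam2) and by 0 in bulk-HSCs, against 8.81%, 9.67% and 13.3% of tested genes. Age groups did not overlap for Ramp2 (higher in aged LT-HSCs, as in 10.2% of tested genes), Emcn (lower there, 5.89%), and Robo4, Ramp2 and Jam2 (higher in aged bulk-HSCs, 13.4%). The median differences of the 9 with age were -0.03, 0.07 and 0.24 on the log2 scale, beside 0.04, 0.02 and 0.03 for all tested genes. Between LT-HSCs and bulk-HSCs, and between ST-HSCs and bulk-HSCs, 0 members were called at either age. The share called was 0.273% and 0.164% of tested genes in young mice and 0 of 12808 genes in aged mice. The unadjusted threshold was passed in young mice by Tek and Jam2 against bulk-HSCs in LT-HSCs and by Jam2 in ST-HSCs, and in aged mice by Emcn and Jam2 in LT-HSCs and by Eng and Jam2 in ST-HSCs, against 11.5%, 9.63%, 3.29% and 2.7% of tested genes. Without overlap, 4 members lay below bulk-HSCs in aged ST-HSCs (Tek, Eng, Ramp2 and Jam2, against 7.51% of tested genes) and 1 in young ST-HSCs (Jam2, 5.41%). In LT-HSCs, Jam2 lay above bulk-HSCs in young mice (6.14%), and Ramp2 above (7.75%) and Emcn below (7.36%) in aged mice. DESeq2 called 1 member, Jam2, between aged LT-HSCs and ST-HSCs and 0 members with age or against bulk-HSCs.

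**Figure D2:**
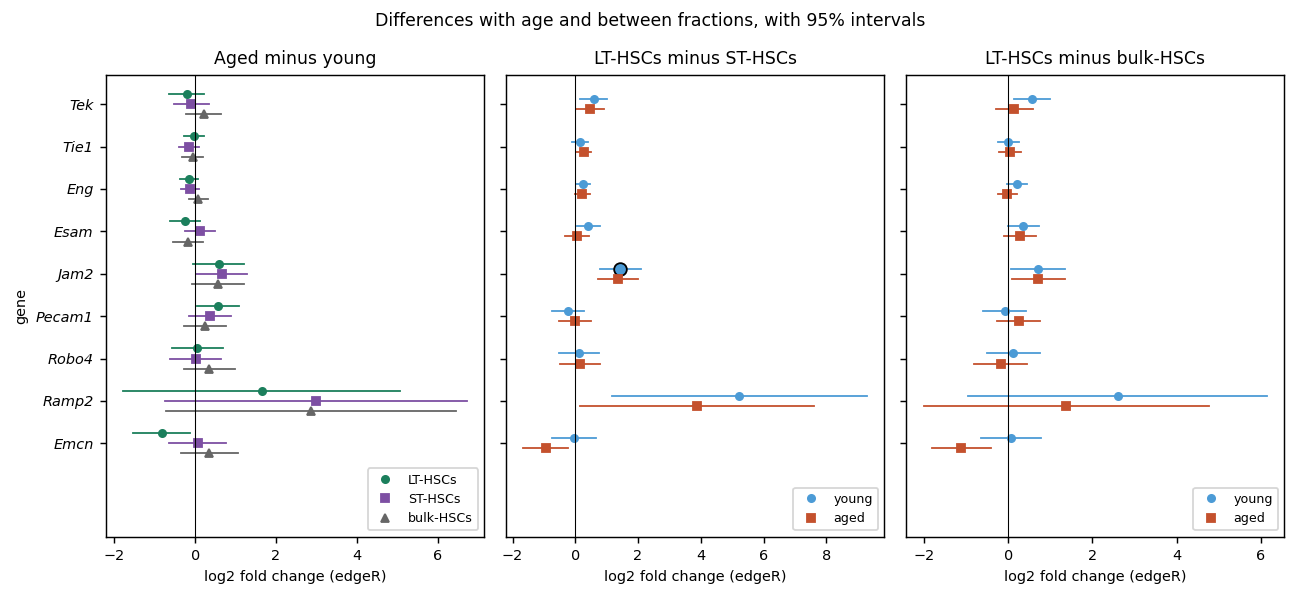
Log2 fold change of the 9 tested genes (vertical axis) with 95% intervals, for aged minus young in each fraction and for LT-HSCs minus ST-HSCs and minus bulk-HSCs at each age. The outlined point, Jam2 in young LT-HSCs against ST-HSCs at 1.43, was the one past the adjusted threshold, and the intervals of Ramp2 were the widest.

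Jam2, junctional adhesion molecule B (ENSMUSG00000053062.16, mm10 chr16:84774123-84825928, plus strand), had the clearest difference between fractions. In young mice it was at 43.4, 61.6 and 39.3 CPM in LT-HSCs, at 18.4, 22.1 and 12.9 in ST-HSCs, and at 34.8, 28.5 and 25.3 in bulk-HSCs. Aged LT-HSCs were at 86.3, 46.8 and 82.3, aged ST-HSCs at 34.1, 32.7 and 17.3, and aged bulk-HSCs at 39.7, 50.6 and 40.9. Every LT-HSC library was thus above every ST-HSC library of the same age, and bulk-HSCs lay between them, apart from overlap with LT-HSCs in aged mice. The mean in young mice was 48.1 ± 11.9 CPM in LT-HSCs and 17.8 ± 4.59 in ST-HSCs (SD, n = 3), a log2 difference of 1.43 (SE 0.31, 95% interval 0.79 to 2.08, adjusted p = 0.0469). The call lay close to the threshold. It was lost without any 1 of replicates 1, 2 or 3 of young LT-HSCs (adjusted p = 0.0739, 0.0832 and 0.0545) or replicates 1 or 3 of young ST-HSCs (adjusted p = 0.113 and 0.149), and the log2 difference then ran from 1.23 to 1.56. It was also lost with the filter of filterByExpr (adjusted p = 0.0521), with limma-voom and sample quality weights (adjusted p = 0.391) and in a fit of the compared groups alone (adjusted p = 0.497). In aged mice the means were 71.8 ± 21.8 and 28.0 ± 9.34 CPM, with a log2 difference of 1.36 (SE 0.31, 95% interval 0.72 to 2.00) that did not pass (adjusted p = 0.28), although DESeq2 and limma-voom called it (adjusted p = 0.00237 and 0.019). The summed level of 24 markers usually confined to endothelium was also higher in young LT-HSCs (132 to 167 CPM) than in young ST-HSCs (76.5 to 111), with Cdh5 at 0. Some of these markers are also expressed by HSCs, and the part of the sum in the difference of Jam2 was not tested.

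The difference of Jam2 between LT-HSCs and ST-HSCs was close in size at both ages. Its difference with age was 0.58 for LT-HSCs, 0.65 for ST-HSCs and 0.57 for bulk-HSCs on the log2 scale, none called (adjusted p = 0.635, 0.492 and 0.461). Subtracting the age effect of ST-HSCs from that of LT-HSCs left -0.08 (adjusted p = 1), and the sign of such differences depended on single libraries. When the 2 ages were averaged in the same model, a contrast added after the data were seen, LT-HSCs exceeded ST-HSCs by 1.39 (SE 0.22, adjusted p = 0.00289), where 0.812% of tested genes were called. When the 3 fractions were averaged, likewise added after the data were seen, aged exceeded young cells by 0.60 (SE 0.17, adjusted p = 0.0455), where 6.75% of tested genes were called. In these averages Jam2 was again the 1 member of 9 called.

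Esam (endothelial cell-selective adhesion molecule, ENSMUSG00000001946.14) is a further junctional protein and a marker used to enrich HSCs. It was at 161, 115 and 138 CPM in young LT-HSCs, 105, 91.5 and 114 in young ST-HSCs, and 126, 89.2 and 108 in young bulk-HSCs. Young LT-HSCs lay above young ST-HSCs in all libraries, with means of 138 ± 23.1 and 104 ± 11.3, a log2 difference of 0.41 (SE 0.18) and an adjusted p = 0.405. In aged mice the groups overlapped, at 103 to 135 CPM in LT-HSCs and 106 to 117 in ST-HSCs. Its largest group mean was 1.44 times its smallest.

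Pecam1 (CD31, ENSMUSG00000020717.19) is an adhesion molecule of endothelium, platelets and leukocytes. Its values were 54.5, 67.9 and 31.1 CPM in young LT-HSCs and 88.7, 57.4 and 82.3 in aged ones. The age groups overlapped, with means of 51.1 ± 18.6 and 76.1 ± 16.5 and a log2 difference of 0.57 (SE 0.25, unadjusted p = 0.033, adjusted p = 0.501). Without replicate 3 of young LT-HSCs, the library with many listed zeros, the difference was 0.32 (adjusted p = 0.918). It was 0.36 in ST-HSCs and 0.24 in bulk-HSCs, and the average over fractions, added after the data were seen, was 0.39 (SE 0.14, adjusted p = 0.121). Between fractions of young mice the largest difference of Pecam1 was -0.23, for LT-HSCs against ST-HSCs.

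Among 22 partners of these adhesion molecules in endothelial junctions (catenins, tight junction scaffolds and other JAM family members), 20 were tested. In young LT-HSCs against ST-HSCs 1 was called, Vcl (vinculin, which ties junctions to actin), at 159 ± 10.5 against 86.1 ± 18.5 CPM, a log2 difference of 0.88 (SE 0.17, adjusted p = 0.033). With age 0 were called in LT-HSCs (3 at an unadjusted p under 0.05 and 0 with DESeq2). Jam3, the main binding partner of Jam2, was picked out after its values were seen, at 40 ± 5.45 CPM in young LT-HSCs and 16.4 ± 4.19 in young ST-HSCs (log2 difference 1.29, adjusted p = 0.0529, and 0.000432 with DESeq2). In aged mice it was at 25.9 ± 7.14 and 10.4 ± 1.76 CPM (log2 difference 1.32, adjusted p = 0.268, and 0.00224 with DESeq2). Other comparisons of Jam3 did not follow Jam2. Its age estimates were negative, at -0.63 (LT), -0.66 (ST) and -0.91 (bulk), none called by edgeR, whereas those of Jam2 were positive. DESeq2 called the decrease of Jam3 in the bulk fraction (adjusted p = 0.0216). Young LT-HSCs differed from young bulk-HSCs by 0.09 for Jam3. The catenins, which anchor cadherins, were detected in every library although Cdh5 was not, with group means of 377 to 448 CPM for Ctnnb1 and 207 to 252 for Ctnnd1.

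Tek (ENSMUSG00000006386.15, mm10 chr4:94739289-94874976, plus strand) was at 118, 88.1 and 111 CPM in young LT-HSCs, 84.2, 76.9 and 50.2 in young ST-HSCs, and 88.3, 54.9 and 70.9 in young bulk-HSCs. Aged LT-HSCs had 87.8, 93.8 and 92.5 CPM, aged ST-HSCs 75.2, 69.2 and 54, and aged bulk-HSCs 76.3, 89.8 and 81.5. The lowest LT-HSC library exceeded the highest ST-HSC library at each age. Means were 105 ± 15.4 and 70.4 ± 17.9 CPM in young mice and 91.4 ± 3.2 and 66.1 ± 10.9 in aged mice. The log2 differences of 0.58 (SE 0.21, adjusted p = 0.293) and 0.47 (SE 0.21, adjusted p = 1) did not pass, nor did their average of 0.52 (SE 0.15, adjusted p = 0.13). Without replicate 3 of young ST-HSCs, the lowest for Tek, the young difference was 0.40 (adjusted p = 0.606). With age the estimates were -0.21 for LT-HSCs, -0.09 for ST-HSCs and 0.21 for bulk-HSCs.

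Tie1 (ENSMUSG00000033191.14) lies on the same chromosome as Tek, 23596214 bases away, and showed little difference between groups. Its group means ran from 237 to 289 CPM. All 3 age differences lay between -0.15 and -0.03 on the log2 scale, with 95% intervals inside -0.41 to 0.23. The largest fraction difference of Tie1 was 0.26 (SE 0.12) between aged LT-HSCs and ST-HSCs, at 284 ± 29.4 against 237 ± 25 CPM with overlapping groups (unadjusted p = 0.0441, adjusted p = 1).

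Of 19 genes of the angiopoietin and Tie pathway 16 were tested, and 0 were called with age within a fraction or between fractions of young mice. In the averaged contrasts added after the data were seen, 1 was called lower with age and 2 higher in LT-HSCs than in ST-HSCs. At an unadjusted p under 0.05 it was 1 to 2 genes with age in single fractions and 2 to 5 between young fractions, and DESeq2 called 4 higher in young LT-HSCs than in ST-HSCs (Pik3r1, Foxo1, Nck1 and Ptprb), 1 lower in young ST-HSCs than in bulk-HSCs (Nck1) and 0 with age. Angpt1, the ligand that activates Tek, was abundant in the HSCs themselves, with group means of 825 to 1040 CPM, whereas Angpt2 was at 4.43 to 7.23 CPM and Angpt4 at 0 in all libraries. Pik3r1, a regulatory subunit of PI3-kinase downstream of Tek, was at 606 ± 52.0 CPM in young LT-HSCs and 409 ± 53.6 in young ST-HSCs (log2 difference 0.57, adjusted p = 0.0502). Foxo1, a transcription factor that Tek signaling restrains, was at 85.1 ± 14.9 and 51.6 ± 12.5 CPM (log2 difference 0.72, adjusted p = 0.114). Ptprb, the phosphatase that dampens Tek in vessels, was at 0 in 8 libraries and reached a group mean of 6.93 CPM in young LT-HSCs.

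Eng (ENSMUSG00000026814.16, mm10 chr2:32646595-32682669, plus strand) had group means of 292 to 380 CPM. Young LT-HSCs were at 383, 338 and 417 CPM (380 ± 39.7) and young ST-HSCs at 313, 309 and 332 (318 ± 12.5), without overlap but with a small log2 difference of 0.26 (SE 0.11, adjusted p = 0.405). In aged mice LT-HSCs were at 328, 357 and 338 CPM and ST-HSCs at 315, 304 and 257, again without overlap, with a log2 difference of 0.23 (SE 0.11, adjusted p = 1). With age Eng differed by -0.15 in LT-HSCs and -0.13 in ST-HSCs, while bulk-HSCs gave 0.08. Eng shares 61 exonic bases with Fpgs on the opposite strand, and the counting of strand is not given in the sources used here, so reads there cannot be assigned. Fpgs was at 17.3 to 46.2 CPM.

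Of 16 genes of endoglin signaling 11 were tested and 0 were called with age within a fraction or between young fractions, with 1 to 5 at an unadjusted p under 0.05 in each. With the fractions averaged, 2 were called higher with age. DESeq2 called Id2 with age in ST-HSCs and between young LT-HSCs and ST-HSCs, and Tgfbr3 with age in bulk-HSCs. Acvrl1 (ALK1), the endothelial type I receptor that signals with endoglin, was at 0 in 12 of 18 libraries with a mean of 0.579 CPM, and the ligands Gdf2 (BMP9) and Bmp10 were at 0 in all. Receptors for TGF-beta were present, with group means of 48.5 to 76.2 CPM for Tgfbr1, 80.2 to 111 for Tgfbr2 and 201 to 315 for the co-receptor Tgfbr3, as was the BMP type II receptor Bmpr2 at 205 to 266 CPM. Id2, a target of SMAD signaling, was at 2.59 ± 3.02 CPM in young and 30 ± 10 in aged ST-HSCs (adjusted p = 0.0854). Id1 and Id3 of the same list were low, with means of 1.48 and 0.243 CPM and 0 in 10 and 15 of 18 libraries. Tgfbr3 was at 242 ± 10.2 CPM in young and 315 ± 6.67 in aged bulk-HSCs.

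Robo4 (ENSMUSG00000032125.20, mm10 chr9:37401897-37415115, plus strand) had the most even group means after Tie1. They ran from 68.5 to 87.7 CPM, although single libraries ran from 43.7 to 117. Young LT-HSCs alone spanned 117, 62.0 and 44.5 CPM. Aged bulk-HSCs were at 95.1, 83.8 and 84.1 CPM and young bulk-HSCs at 43.7, 81.7 and 80.3, which did not overlap, as in 13.4% of all tested genes in that direction, and the log2 difference was 0.35 (95% interval -0.28 to 0.99, adjusted p = 0.746). Robo4 lies 112962 bases from Esam on the same strand of chromosome 9, with Robo3, Msantd2 and 2 other annotated loci between them. Msantd2 was at 13.7 to 44.3 CPM and Robo3 at 0 to 16.4.

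Of 14 genes of Slit, Robo and Unc5b signaling 9 were tested and 0 were called with age or between young fractions, with 0 to 2 at an unadjusted p under 0.05 in each such comparison and 4 with age when fractions were averaged. DESeq2 called 1 of them, Robo1, lower with age in ST-HSCs. Robo1 was at 12.8 ± 10.5 CPM in young LT-HSCs and 1.79 ± 0.874 in aged ones, and it was at 0 in all 3 libraries of aged ST-HSCs. Robo2 and Slit1 were at 0 in every library, Slit2 at group means of 3.05 to 11.5 CPM, and Unc5b, a vascular partner of Robo4, at 0.903 CPM on average. Srgap3, a cytoplasmic protein bound by Robo receptors, was at 136 ± 30.9 CPM in young and 90.4 ± 13.9 in aged LT-HSCs.

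Ramp2 (ENSMUSG00000001240.13, mm10 chr11:101246028-101259546, plus strand) was low and the most variable of the group. In young mice it was at 11.2, 8.37 and 3.81 CPM in LT-HSCs (205, 171 and 65 counts), at 0, 0.589 and 0 in ST-HSCs, and at 0, 0 and 3.83 in bulk-HSCs. Aged LT-HSCs had 22.3, 18.6 and 31.7 CPM, aged ST-HSCs 1.99, 2.91 and 0, and aged bulk-HSCs 12.9, 5.62 and 9.52. LT-HSCs lay above ST-HSCs at both ages without overlap, and aged LT-HSCs and aged bulk-HSCs lay above their young counterparts. The fitted log2 difference between LT-HSCs and ST-HSCs was 5.23 in young mice (95% interval 1.16 to 9.30, adjusted p = 0.323) and 3.88 in aged mice (95% interval 0.14 to 7.62, adjusted p = 1). Neither passed, and without replicate 2 of young ST-HSCs, the one with Ramp2 counts, the young difference was 10.3 because the group was then at 0. The age differences of Ramp2 were 1.64 (SE 1.62), 2.99 (SE 1.78) and 2.86 (SE 1.7) for the LT, ST and bulk fractions, none called. Averaged over ages, LT-HSCs exceeded ST-HSCs by 4.56 (SE 1.31, adjusted p = 0.149), in the contrast added after the data were seen.

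The annotated exons of Ramp2 share 1103 bases with Vps25, a component of the endosomal sorting complex, on the same strand. Counts of the genes could therefore be split between them in the authors' quantification. Vps25 had group means of 44.7 to 52.1 CPM. When the counts of both were summed, an alternative added after the data were seen, the log2 difference between LT-HSCs and ST-HSCs was 0.01 in young and 0.55 in aged mice, neither called (adjusted p = 1 and 1). Vps25 made up most of this sum, as Ramp2 had group means of 0.196 to 24.2 CPM, so the sum says little about Ramp2 itself. Whether the split of reads played a part in the pattern of Ramp2 was not tested further.

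Of 10 genes of adrenomedullin and CGRP reception 4 were tested. Calcrl, the receptor that needs a RAMP partner, was at group means of 157 to 214 CPM and was not called. Ramp1, whose pairing with Calcrl makes the CGRP receptor, was at 34.1 ± 6.65 CPM in LT-HSCs and 77.8 ± 5.94 in ST-HSCs of young mice, a log2 difference of -1.19 (SE 0.22, adjusted p = 0.0243), and it was the 1 gene of the list called between young fractions or with age. Ramp3, the other partner, and the ligand genes Adm and Calca were at 0 in all libraries.

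Emcn (ENSMUSG00000054690.17, mm10 chr3:137341067-137432185, plus strand) was the 1 member whose aged LT-HSC libraries all lay below those of young LT-HSCs, aged ST-HSCs and aged bulk-HSCs. Aged LT-HSCs were at 14, 13.1 and 14 CPM (13.7 ± 0.509), against 26.0, 32.3 and 14.8 in young LT-HSCs (24.4 ± 8.84). Aged ST-HSCs were at 20.1, 31.7 and 26.9 CPM and aged bulk-HSCs at 37.8, 26.3 and 24.7, and all of these lay above every aged LT-HSC library. The log2 difference with age in LT-HSCs was -0.83 (SE 0.34, unadjusted p = 0.0246, adjusted p = 0.45), and -1.09 (adjusted p = 0.271) without replicate 3 of young LT-HSCs. Within aged mice LT-HSCs differed by -0.93 (SE 0.34, adjusted p = 1) from ST-HSCs and by -1.11 (SE 0.34, unadjusted p = 0.00432, adjusted p = 1) from bulk-HSCs. Relative to bulk-HSCs, the age effect of LT-HSCs was -1.18 (SE 0.48, unadjusted p = 0.0238, adjusted p = 0.802), in a comparison where 0.00781% of tested genes were called. In young mice the fractions of Emcn differed by at most 0.10 on the log2 scale, and none of these differences was called.

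**Figure D3:**
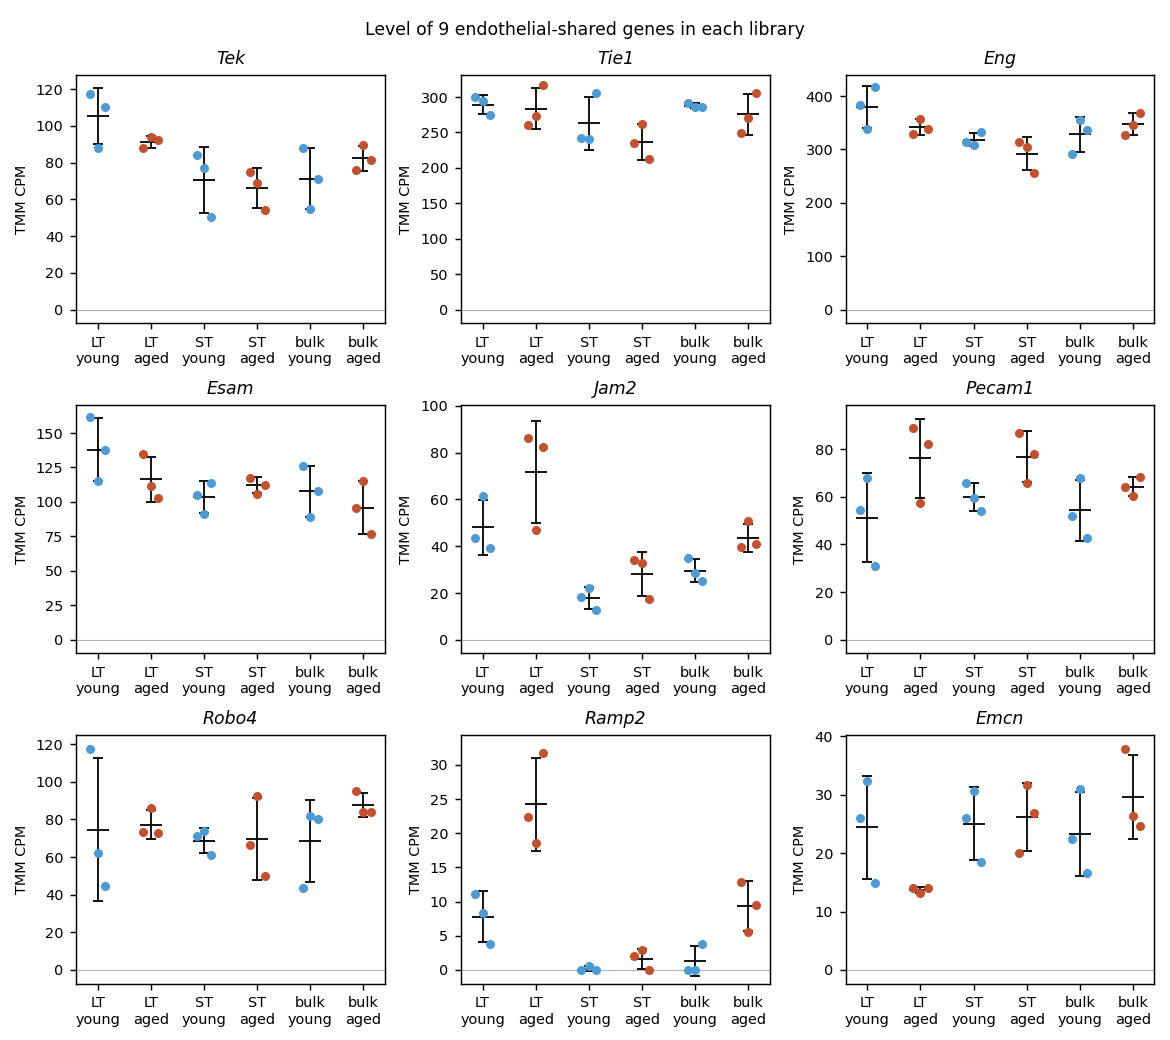
TMM-normalized CPM (vertical axis, a separate linear scale for each gene) of the 9 detected genes in each of the 18 libraries, by fraction and age (horizontal axis). Points are libraries, bars the mean and SD of 3. Jam2 and Ramp2 were highest in LT-HSCs at both ages, Emcn was near 14 CPM in aged LT-HSCs, and Tie1 and Eng were nearly level.

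The members did not vary as a block. Over the 18 libraries the Pearson r of log2(CPM + 1) between the 9 detected members ran from -0.496 to 0.851 in 36 pairs, with a median of 0.193, and exceeded 0.5 in 5 pairs. The highest was Ramp2 with Jam2 at 0.851, followed by Tek with Jam2 at 0.659, and Tie1 with Eng reached 0.605. These values describe libraries that share fraction, age and depth. Among genes with a mean of at least 10 CPM, those with the pattern most like Tek were Dcbld2 (r = 0.858), Hoxb5 (r = 0.856) and Sft2d2 (r = 0.835). Those most like Jam2 were Rarb (r = 0.866), Nbea (r = 0.844) and Asph (r = 0.836), and those most like Ramp2 were Tmem56 (r = 0.909), Rdh10 (r = 0.88) and Ampd3 (r = 0.875).

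For comparison, 20 other genes that HSCs have in common with endothelium were all tested. With age 2 of them were called higher and 1 lower in LT-HSCs, 4 higher and 1 lower in ST-HSCs, and 7 higher and 1 lower in bulk-HSCs, and 4 were called higher in young LT-HSCs than in ST-HSCs. Vwf, the platelet adhesion protein stored in endothelium, was at 652 ± 97.4 CPM in young LT-HSCs against 85.3 ± 15.9 in young ST-HSCs (adjusted p = 9.55e-07). Selp (P-selectin) was at 18.6 ± 15.9 CPM in young and 319 ± 7.12 in aged bulk-HSCs (adjusted p = 0.000241), and Sdpr (cavin-2) at 81.7 ± 31.0 in young and 245 ± 25.1 in aged LT-HSCs (adjusted p = 0.00567). Of the 9 tested members 0 were called with age in any single fraction. Whether the lists differ was not tested. A further list held 22 transcription factors of HSCs and endothelium, namely ETS, GATA and SCL factors and others such as Runx1, Mecom, Meis1 and Hoxa9. Of these, 19 were tested and 0 were called with age within a fraction or between young fractions. At an unadjusted p under 0.05 it was 1 to 5 in each comparison. With the fractions averaged, 4 were called higher with age. DESeq2 called 4 with age in ST-HSCs (Ets1, Fli1, Gata2 and Hhex), 1 with age in bulk-HSCs (Lmo2), and Mecom between young LT-HSCs and both other fractions. Mecom was at 346 ± 8.14 CPM in young LT-HSCs and 247 ± 11.8 in ST-HSCs, and Lmo2 had group means of 751 to 924.

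Markers that are usually confined to endothelium had sums that differed between fractions and ages. Of 24 such genes, 5 (Sox17, Nos3, Gpihbp1, Esm1 and Pcdh12) were at 0 in all 18 libraries, as was Cdh5, and 11 had a mean of at least 1 CPM. Their summed level was 132 to 167 CPM in young LT-HSCs, 76.5 to 111 in young ST-HSCs and 84.2 to 113 in young bulk-HSCs. The aged fractions, in the same order, had 206 to 263, 117 to 129 and 167 to 203 CPM. The list was not exclusive. Kdr was also counted above among the other genes that HSCs have in common with endothelium, and Sox17 and Sox18 among the transcription factors. Kdr averaged 24.8 CPM of a mean sum of 155 in young LT-HSCs and 38.4 of 227 in aged LT-HSCs. Podxl, which HSCs also express, had the highest CPM of the 24 markers, not corrected for length, at group means of 39.7 to 59.3, and Cldn5 ran from 1.22 to 51.7. Tm4sf1 was the 1 gene of the list called with age within a fraction by edgeR, in bulk-HSCs. It was at 0 in all young bulk-HSC libraries and at 15.1 ± 6.77 CPM in aged ones. Those young libraries also listed 61, 29 and 67 genes of high median count at 0, so no lower bound on the fold is given. DESeq2 called Tm4sf1 in ST-HSCs as well and Flt4 in bulk-HSCs. With the fractions averaged edgeR called 3 of the 11 tested markers higher with age. The sum was thus higher in LT-HSCs than in ST-HSCs and in aged than in young cells of each fraction, as were the means of Jam2 and Ramp2. Single markers did not all follow the sum. Of the 11 tested, 3, 1 and 0 had estimates below 0 with age in LT-HSCs, ST-HSCs and bulk-HSCs. For LT-HSCs against ST-HSCs it was 2 in young and 1 in aged mice. Podxl was at 39.7 CPM in young LT-HSCs and 58.6 in young ST-HSCs, and Ecscr fell from 16.2 to 11.8 with age in LT-HSCs. The part of endothelial cells in the levels of the 10 genes was not tested, and in such sorted pools more cells of a type and more RNA per cell cannot be told apart.

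**Figure D4:**
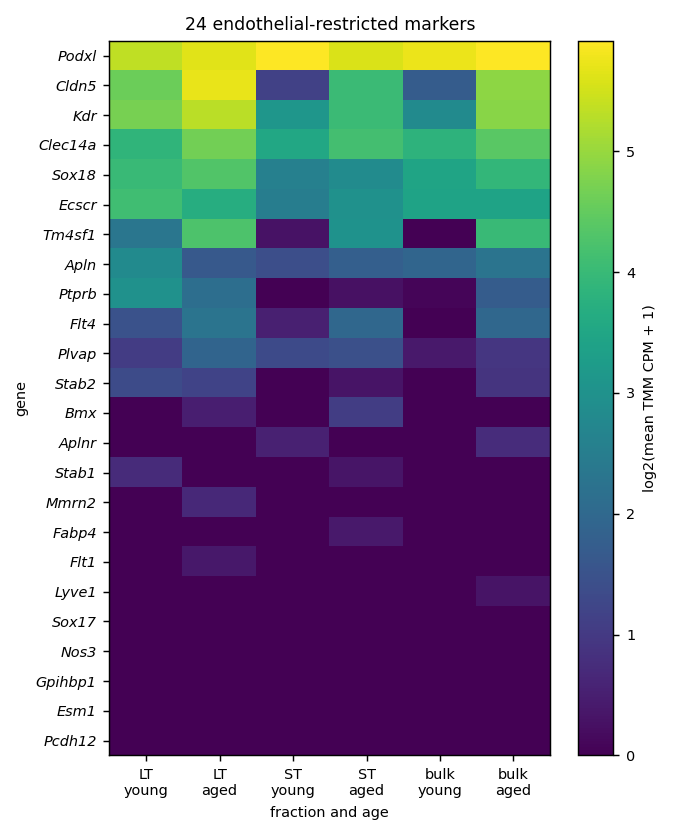
Mean level of 24 endothelial-restricted markers (rows) in the 6 groups (columns, 3 libraries each), as log2(mean CPM + 1) by color. Cldn5 and Tm4sf1 were highest in aged LT-HSCs, and the lowest 5 rows were at 0 in all libraries.

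Markers of other cells were as follows. Of 12 stromal and pericyte markers 2 were tested and 0 were called (0 at an unadjusted p under 0.05 and 0 with DESeq2), and the sum of all 12 ran from 7.19 to 39.4 CPM in single libraries, with Pdgfrb at group means of 12.7 to 25.2 and Col1a2 at 3.26 to 7.8. Of 12 megakaryocyte and platelet markers 11 were tested, and Itgb3, which HSCs also express, was called higher with age in all 3 fractions, from 202 ± 53.7 to 450 ± 42.6 CPM in LT-HSCs. Of 18 markers of other blood cells 6 were tested, and Klrb1c (a natural killer cell receptor gene) was at 4.75 ± 3.03 CPM in young and 54.2 ± 4.55 in aged bulk-HSCs (adjusted p = 0.0227), while Epor was at 0 in all young ST-HSC libraries. Of 10 HSC markers all were tested, and Slamf1 (63.4 ± 9.82 against 21.9 ± 7.06 CPM) and Fgd5 (222 ± 10.9 against 143 ± 7.08) were called higher in young LT-HSCs than in ST-HSCs. Slamf1 was also called higher with age in ST-HSCs, at 43.6 ± 4.2 CPM in aged cells (adjusted p = 0.0446), and in bulk-HSCs, from 31.9 ± 2.3 to 61.9 ± 5.18 CPM (adjusted p = 0.0313).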

How the data were processed

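The authors prepared libraries depleted of ribosomal RNA from sorted LT-HSCs, ST-HSCs and bulk-HSCs, mapped paired reads with HISAT2 (mm10) and quantified genes by StringTie 1.3.4d. The deposited values are counts per gene symbol, whole numbers without normalization. Strand handling is not given in the sources used here. Libraries were assigned to fraction and age from the sample labels.

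Counts were scaled with TMM factors in edgeR 4.0.16 (R 4.3.3). The 12808 genes whose CPM averaged at least 1 entered one quasi-likelihood fit of 6 group means (12 residual degrees of freedom), which was tested on simulated data. Contrasts gave age effects, fraction differences and their interactions, with Benjamini-Hochberg adjustment over all tested genes and a threshold of 0.05. Exact permutation tests of 3 against 3 libraries cannot go below p = 0.1 and are not quoted. Exon lengths and overlaps came from GENCODE M21, promoters from RefSeq. Alternatives were other scalings and filters, fits of the compared groups alone, a replicate block, the number of detected genes as covariate, DESeq2 1.42.0, limma-voom (limma 3.58.1) with quality weights, and each library left out. Averaged contrasts and the summing of Ramp2 with Vps25 were added after the data were seen. Figures used matplotlib 3.10.9.

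The 10 members and all lists were chosen with earlier results of these data known. Named were all members and, of each list, up to 3 genes called with age or between young fractions, otherwise the 2 with the smallest p, the marker with the highest CPM, and the 3 genes most like a member. Other genes named for their function, levels of 0 or DESeq2 calls, such as Jam3, were picked after their values were seen. Depth ran from 16495048 to 22973844 counts per library. Some genes of the lists are not reported here.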

Additional observations from a re-analysis of the deposited data

How the results depend on the processing

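Only Jam2 gave calls among the members, and its call in young LT-HSCs against ST-HSCs rests on a p near the threshold. No sign change of a member coincided with a call. At these depths a level under 3 counts, as for Cdh5, could not be measured. Members called between young LT-HSCs and ST-HSCs numbered 1, and 0 with filterByExpr, limma-voom or the compared groups alone, and 0 to 1 with each library left out. Between aged LT-HSCs and ST-HSCs they numbered 0, and 1 with DESeq2 or limma-voom.

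The number of genes called depended more on the method, and the cause was not tested. In the order age in LT-HSCs, ST-HSCs and bulk-HSCs, then young LT minus ST, LT minus bulk and ST minus bulk, it was 57, 109, 253, 55, 35 and 21 in the reported fit. DESeq2 called 291, 448, 739, 387, 438 and 308. Fits of the compared groups alone called 9, 27, 139, 5, 0 and 1. With the number of detected genes as covariate the 3 age counts were 23, 54 and 82, and the young counts against bulk-HSCs 62 and 32. Limma-voom called 7, 0 and 1 between young fractions. In aged mice (LT minus ST, LT minus bulk, ST minus bulk) the reported counts were 1, 0 and 0, with 55, 32 and 41 by DESeq2, 66, 30 and 24 by limma-voom, 3, 1 and 7 with the compared groups alone, and 2 for the first when genes with at least 1 count in any library were kept. For the interactions (LT minus ST, LT minus bulk, ST minus bulk) they were 0, 1 and 8, with 83, 122 and 128 by DESeq2. The last 2 were 0 and 0 by limma-voom and in fits of the compared groups alone. The last was 5 with the covariate, 3 with at least 1 count in any library and 2 with library size alone.

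With each library left out, the counts ran from 15 to 182, 45 to 120 and 114 to 237 for age, from 35 to 127, 33 to 109 and 19 to 46 between young fractions, from 0 to 2, 0 to 1 and 0 to 1 between aged fractions, and from 0 to 11, 0 to 20 and 0 to 24 for the interactions. The interaction of Jam2 changed sign among these fits, from -0.33 to 0.15 (LT minus ST), -0.14 to 0.24 (LT minus bulk) and -0.0938 to 0.34 (ST minus bulk), and with limma-voom it was -0.14 and -0.07 in the last 2.

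Whether libraries of one replicate number share animals is not given by the labels, and they were treated as unpaired. Of 18 such pairs of the same age, 1 had a correlation of deviations over 0.1. Pairs of LT-HSCs with ST-HSCs ran from 0.017 to 0.124, and pairs with bulk-HSCs from -0.044 to 0.038. These values cannot settle whether the libraries were paired. With the replicate block the counts were 1 between aged ST-HSCs and bulk-HSCs and 0 and 0 for the last 2 interactions, and Jam2 between young LT-HSCs and ST-HSCs was 1.44 (adjusted p = 0.0457). No other count moved by over 1.5 times under the block.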
